A study of Mus musculus with 9 samples.

Results

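Adding R848 to IFN-α was examined in primary mouse microglia as 1 comparison of a 9-library RNA sequencing series. It set 3 libraries from cells given R848 and IFN-α together (called combined below) against 3 libraries from cells given IFN-α only. All genes were taken, by reverse-strand read counts: 11002 of the 24411 annotated genes passed the filter on low counts and were tested. The cells came from the brains of 3-day-old ICR mice, an outbred strain, were grown as mixed glia and were collected by shaking, with no sorting step described. They were plated 24 h before treatment. The IFN-α group received recombinant mouse IFN-α at 100 U/ml for 4 h, and the combined group received the same IFN-α with R848 (resiquimod) at 1 µM for the same 4 h. Both groups therefore carry IFN-α, so the contrast addresses what R848 adds in cells that also receive IFN-α. A group of 3 libraries given 1 µM R848 without IFN-α is quoted as a level beside some results, with no test, and untreated cells were not analysed here. The labels number the libraries of a group but do not say whether they came from separate animals, flasks or RNA extractions, and the p-values below reflect library-to-library spread alone, part or all of which could be technical.

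R848 is a small imidazoquinoline that activates Toll-like receptor 7 (TLR7), an endosomal receptor for single-stranded RNA carried by microglia and other macrophages. TLR7 signals through the adaptor MyD88 and IRAK kinases to NF-κB, MAP kinases and IRF factors, which switch on cytokine and chemokine genes together with the inhibitors that later end the response. IFN-α signals through the receptor pair IFNAR1 and IFNAR2 and the kinases JAK1 and TYK2 to STAT proteins and IRF9, which bind the interferon response elements of interferon-stimulated genes. Microglia use both routes to sense viral nucleic acid, and their resting identity genes, such as P2ry12 and Tmem119, are known to fall during such responses.

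The IFN-α libraries held 2505941 to 2852960 counts on genes and the combined libraries 2795385 to 6005578. Transcripts of Rn45s, the ribosomal RNA precursor, took 16.0 to 26.1% of the counts in the IFN-α libraries and 13.3 to 21.0% in the combined libraries, and the groups overlapped. Levels below are CPM, reads of a gene scaled to a common library size and adjusted by TMM, a factor that lines libraries up on the bulk of their genes. A ± after a CPM mean is the SD over 3 libraries (n = 3), and a ± after a log2 fold change is its SE. The first principal component of log2 CPM over the 6 libraries held 76.3% of the variance and separated the groups, and the second held 7.17%. The 14 microglia and macrophage markers summed to 8025 to 8347 CPM in the IFN-α libraries and 6339 to 7167 CPM in the combined libraries. Among these 14, 3 were called higher, 6 lower and 5 were not called, by the test described below. The 11 tested astrocyte markers, among them Gfap and Aqp4, summed to 1198 to 1520 CPM and 2451 to 3536 CPM, so astrocyte RNA was present in both groups. Markers of neurons, oligodendrocytes, fibroblasts, endothelium and other leukocytes each summed to 690.1 CPM or less in every combined library. Of these, the sum of oligodendrocyte lineage markers was lower there, at 557.2 to 604 CPM against 639.6 to 756 CPM in the IFN-α libraries, with no overlap. Of 9 tested, 2 were called lower and 7 were not called. The lower calls numbered 1 with DESeq2 or without combined library 3, and 4 under upper-quartile factors or library totals. The sum of fibroblast and pericyte markers was higher there, at 473.2 to 690.1 CPM against 412.8 to 471.9 CPM, also with no overlap. Of 10 tested, 3 were called higher, none lower and 7 were not called. The 2 tested other leukocyte markers summed to 11.5 to 13.4 CPM against 9.22 to 10.5 CPM. Neither was called, and they went opposite ways (log2 fold changes of -0.26 and 0.65). Sums of neuron and endothelial markers overlapped between the groups. In bulk RNA, fewer cells of a type and less RNA per cell cannot be told apart.

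At an adjusted p of 0.05 (edgeR's quasi-likelihood test, Benjamini-Hochberg adjustment over all genes tested, used for every adjusted p below), 3652 genes (33.2%) differed between the groups, 2035 of them higher (18.5%) and 1617 lower (14.7%) with R848. The shares of 18.5% higher and 14.7% lower are the background for the counts of called members in each gene list below. The 48 lists held 907 entries for 842 distinct genes, so some genes count in more than 1 list. Calls of at least 2-fold numbered 765 higher (6.95%) and 482 lower (4.38%). The 3 combined libraries lay entirely above or entirely below the 3 IFN-α libraries for 5088 genes (46.2%), and for 1970 of the 2035 higher and 1564 of the 1617 lower calls. The median called change was 1.73-fold for higher and 1.69-fold for lower genes. The tails were unequal: 17 genes were called higher by over 64-fold against 1 lower, and 51 against 9 by 16 to 64-fold. The split of calls depended on scaling, with 1697 higher and 2091 lower under upper-quartile factors and 1044 higher and 3768 lower under library totals alone. The median log2 difference over all genes was -0.0088 with TMM and -0.321 with library totals, so small differences took their direction from the scaling. Of the genes named below as higher, B2m, Cd86, Cmpk2, Ctsc, Ctsl, Ifit1, Il10ra, P2ry6 and Stat3 kept their sign but not their call under library totals. In every gene named below as called, the 3 combined libraries did not overlap the 3 IFN-α libraries.

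**Figure D1:**
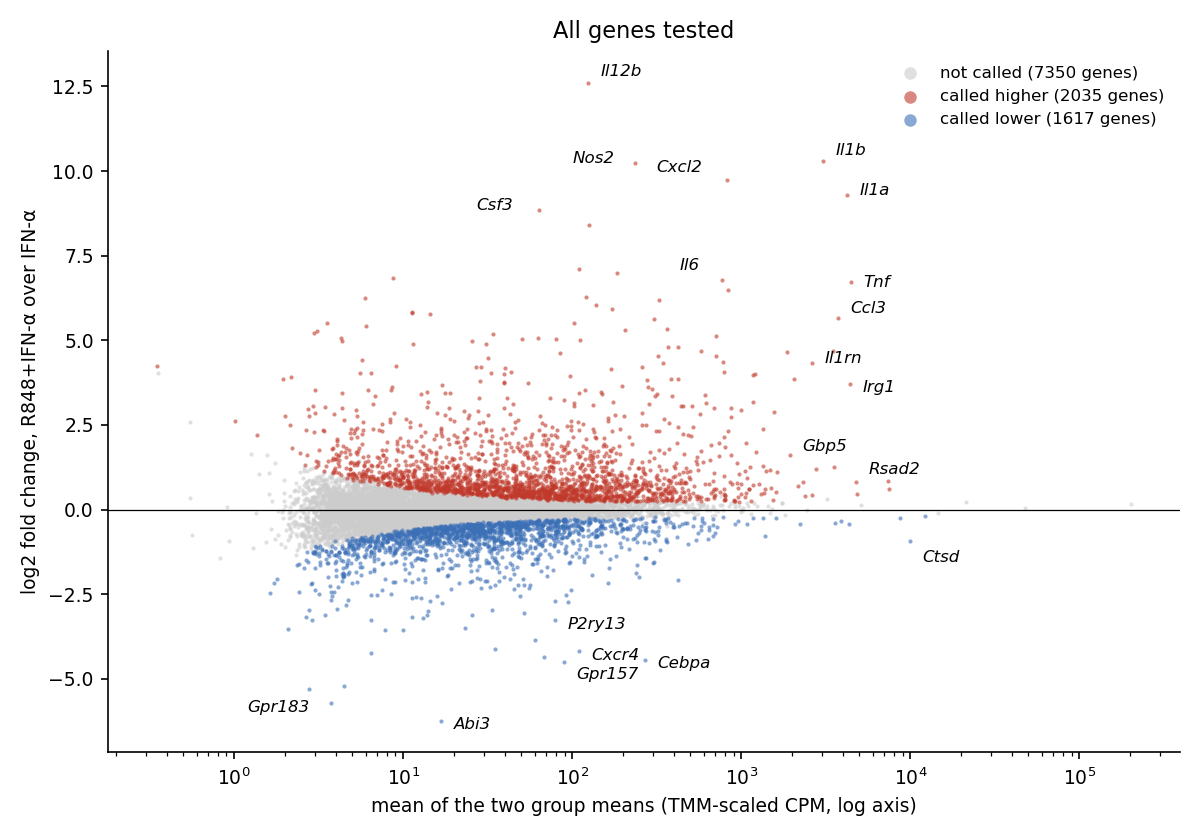
Each point is 1 of the 11002 genes tested, with the mean of both group means in TMM-scaled CPM on a log axis (x) and the log2 fold change of R848+IFN-α over IFN-α (y); red marks 2035 genes called higher, blue 1617 called lower and grey the rest. The upper tail ends with Il12b, whose fitted value is no bound because it had 0 counts with IFN-α only, and holds abundant transcripts such as Il1b, Il1a and Tnf, while the lower tail ends at -6.23 for Abi3.

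Few transcripts took much of the gain. The 10 genes with the largest gain in mean CPM were Tnf, Il1a, Irg1, Ccl3, Mmp13, Il1b, Il1rn, Actb, Ptgs2 and Ccl4. Together they held 0.875 to 0.977% of counts (Rn45s set aside) in the IFN-α libraries and 6.60 to 7.53% in the combined libraries. The R848-alone libraries had 3.92 to 4.17% in the same genes. These 10 genes made up 21.9% of the summed gain over all genes that were higher in mean, and the top 50 made up 44.7%. Actb, the cytoskeletal actin often taken as a reference gene, rose from 5264 ± 306 to 9447 ± 996 CPM (log2 fold change 0.84 ± 0.087, edgeR adjusted p = 2.99e-09). The largest drops in mean CPM included those of Ctsd, Lyz2, Ctsb, Psap, Ftl1, Spp1, Ctss, Nceh1 and Cebpa.

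Pro-inflammatory cytokines had the highest median change of the lists. Of 18 listed, 14 were tested, 13 rose, none fell, and the median log2 difference was 4.75 against -0.0088 over all genes. Il1b, encoding the inflammasome substrate IL-1β, had 6.19, 6.16 and 2.54 CPM in the IFN-α libraries and 6351, 5668 and 6257 CPM in the combined libraries (log2 fold change 10.28 ± 0.16, edgeR adjusted p = 3.21e-29). Il1a, its cell-bound relative IL-1α, had 13.6, 14.1 and 12.4 CPM in the IFN-α libraries and 9033, 7798 and 8539 CPM in the combined libraries (log2 fold change 9.31 ± 0.12, edgeR adjusted p = 1.35e-30). In both genes the 3 combined libraries lay orders of magnitude above the 3 IFN-α libraries. Tnf, the master cytokine of acute inflammation, had 77.0, 73.9 and 99.9 CPM in the IFN-α libraries and 9619, 8037 and 8669 CPM in the combined libraries (log2 fold change 6.71 ± 0.12, edgeR adjusted p = 9.58e-27). Il6, which drives the acute phase response, had 13.9, 12.3 and 14.9 CPM in the IFN-α libraries and 1585, 1368 and 1599 CPM in the combined libraries (log2 fold change 6.78 ± 0.14, edgeR adjusted p = 3.39e-26). Il6 averaged 127 ± 18.8 CPM with R848 alone, so the combined libraries held the highest Il6 of the 3 groups, and Tnf averaged 4649 ± 496 CPM there.

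Il12b encodes the p40 chain shared by IL-12 and IL-23. No read fell on it in the 3 IFN-α libraries, and the combined libraries had 258, 246 and 239 CPM, from 2449 counts. Against a floor of 3 counts over the IFN-α group it was at least 695-fold higher (edgeR adjusted p = 1.12e-22). The R848-alone libraries had 225, 239 and 280.2 CPM, which overlaps the combined range. Il27, the p28 chain of IL-27, had 5.03, 2.17 and 1.59 CPM in the IFN-α libraries and 380.2, 336 and 383 CPM in the combined libraries (log2 fold change 6.997 ± 0.19, edgeR adjusted p = 8.61e-23), beside 18.6 ± 4.20 CPM with R848 alone. Ebi3, the partner chain of p28, rose less, from 3.19 ± 0.294 to 8.76 ± 4.43 CPM, and its call was lost with unstranded counts (1.08, adjusted p = 0.0555, edgeR). The partner chains of p40, Il12a and Il23a, were too sparse to test: 8 and 16 counts over the combined libraries and 0 over the IFN-α ones.

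Other cytokines spanned a wide range of folds. Tnfsf15, a TNF family ligand known as TL1A, rose 66.0-fold from 4.02 ± 1.55 to 274 ± 16.1 CPM. Tnfsf9, the ligand of the costimulatory receptor 4-1BB, rose 11.02-fold from 2.29 ± 0.760 to 25.2 ± 0.762 CPM. Lif, a ligand of the gp130 receptor, rose 6.54-fold, and Il15, which supports natural killer and memory T cells, rose 3.56-fold. Il18, another inflammasome substrate, rose 2.45-fold from 43.3 ± 3.30 to 106 ± 14.9 CPM, and averaged 18.7 ± 2.63 CPM with R848 alone. Osm, which encodes oncostatin M, was not called: it had 99.9, 82.2 and 111 CPM in the IFN-α libraries and 111, 93.7 and 121 CPM in the combined libraries, and the groups overlapped (log2 fold change 0.16 ± 0.12, edgeR adjusted p = 0.337).

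Inhibitors of cytokine action rose in the same libraries. Of 11 tested anti-inflammatory cytokines and antagonists, 9 rose and none fell (1 fell under upper-quartile factors, library totals, the stricter count filter or the fit of the 6 libraries alone), with a median log2 difference of 1.46. Il1rn, the secreted antagonist of the IL-1 receptor, had 252, 259 and 230.2 CPM in the IFN-α libraries and 5472, 4767 and 4709 CPM in the combined libraries (log2 fold change 4.33 ± 0.095, edgeR adjusted p = 3e-25). It averaged 476 ± 31.6 CPM with R848 alone. Socs3, a suppressor of gp130 and STAT3 signalling, had 6.19, 6.88 and 6.68 CPM in the IFN-α libraries and 227, 199 and 221 CPM in the combined libraries (log2 fold change 5.02 ± 0.16, edgeR adjusted p = 2.33e-21). Cish, a suppressor of STAT5 signalling, rose 11.7-fold. Il10 had 0, 0 and 0.318 CPM in the IFN-α libraries and 7.47, 5.61 and 7.84 CPM in the combined libraries, that is 1 count over the IFN-α libraries and 72 over the combined ones. The ratio of its scaled counts was 61.3, with an exact 95% interval of 10.7 to 2456 that covers counting error only, and its adjusted p was 2.33e-07 (edgeR). Il10ra, the IL-10 receptor chain, rose 1.46-fold.

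**Figure D2:**
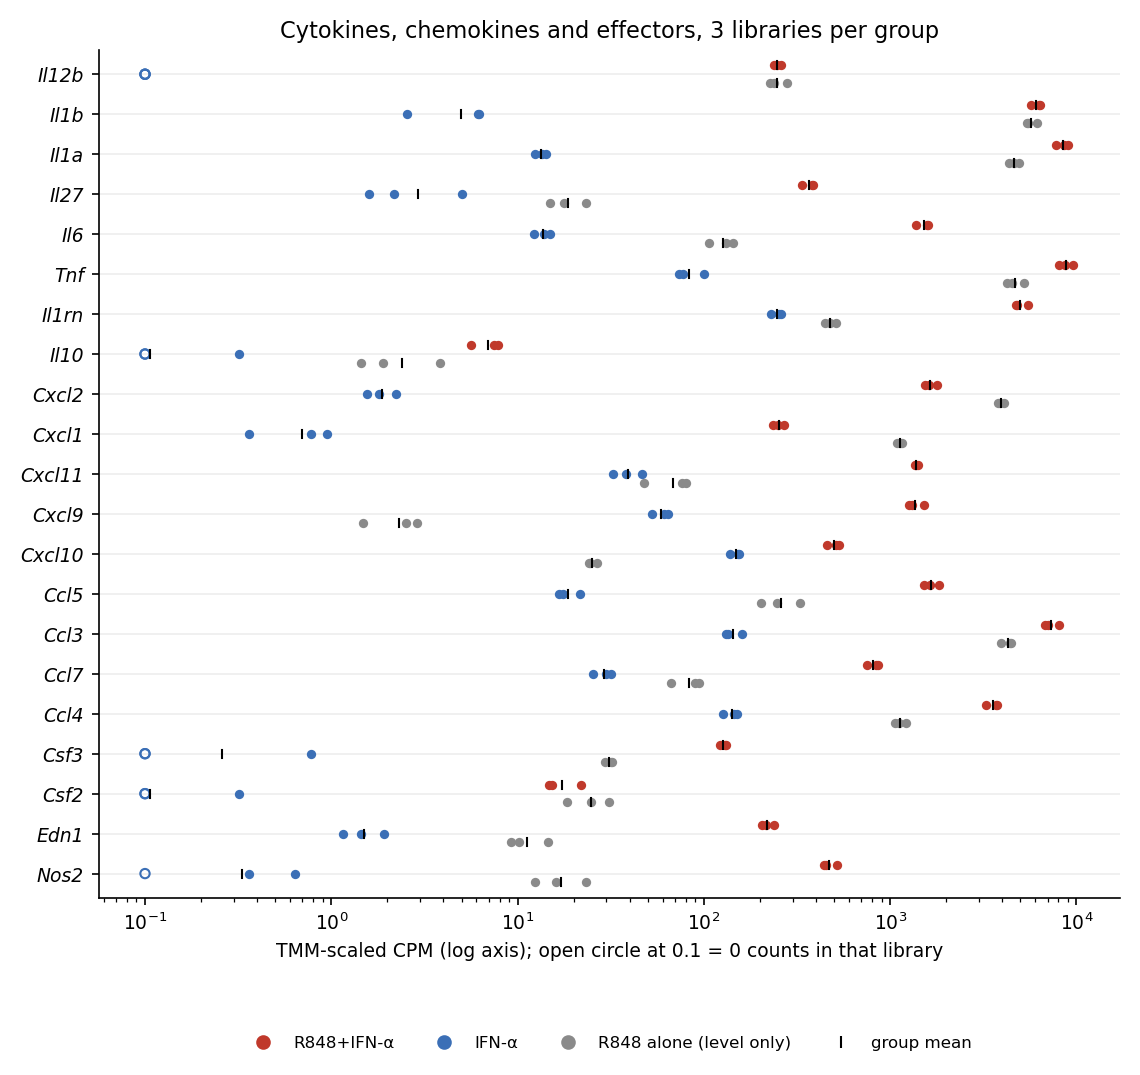
Per-library level (TMM-scaled CPM, log axis) of 21 cytokine, chemokine and effector genes in the combined, IFN-α and R848-alone groups, 3 libraries each; each dot is a library, each tick a group mean, and an open circle at 0.1 stands for 0 counts. In every gene shown all 3 combined libraries lie above all 3 IFN-α libraries, while the R848-alone libraries lie to the right of the combined ones for Cxcl1 and Cxcl2 and far to the left for Cxcl9, Il27, Il6 and Nos2.

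Chemokines attract leukocytes, and most members of both classes rose. Of 12 CXC chemokines tested, 11 rose and 1 fell (median log2 difference 2.55), and of 10 CC chemokines 7 rose and none fell (median 3.77). Cxcl2, a neutrophil attractant acting on CXCR2, had 1.55, 1.81 and 2.23 CPM in the IFN-α libraries and 1775, 1540.5 and 1619 CPM in the combined libraries (log2 fold change 9.74 ± 0.15, edgeR adjusted p = 3.21e-29). Cxcl1, a ligand of the same receptor, had 0.774, 0.362 and 0.954 CPM in the IFN-α libraries and 269, 235 and 251 CPM in the combined libraries (log2 fold change 8.40 ± 0.19, edgeR adjusted p = 6.33e-25). With R848 alone Cxcl2 averaged 3929 ± 161 CPM and Cxcl1 1127 ± 33.0 CPM, so for both genes all R848-alone libraries lay above all combined libraries. Cxcl3, from the same gene cluster, stayed low with IFN-α present, from 0.493 ± 0.600 to 3.51 ± 0.711 CPM (edgeR adjusted p = 0.000311), beside 129 ± 13.8 CPM with R848 alone.

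The lymphocyte attractants of the CXCR3 receptor showed the other order. Cxcl9 had 60.8, 64.1 and 52.5 CPM in the IFN-α libraries and 1518, 1314 and 1263 CPM in the combined libraries (log2 fold change 4.53 ± 0.11, edgeR adjusted p = 2.72e-24) and 2.30 ± 0.734 CPM with R848 alone. Cxcl11 had 32.5, 38.0 and 46.4 CPM in the IFN-α libraries and 1407, 1365 and 1378 CPM in the combined libraries (log2 fold change 5.14 ± 0.15, edgeR adjusted p = 4.04e-18) and 68.0 ± 17.7 CPM with R848 alone. Cxcl10 rose less, with 152, 138 and 155 CPM in the IFN-α libraries and 459.8, 529 and 514 CPM in the combined libraries (log2 fold change 1.75 ± 0.092, edgeR adjusted p = 7.49e-16). In all 3 genes the combined libraries lay above both single-treatment groups. Cxcl16, the membrane-bound ligand of CXCR6, rose 5.67-fold, and Cxcl14 was the member that fell, from 16.1 ± 2.80 to 6.82 ± 0.711 CPM (edgeR adjusted p = 0.000222).

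Among CC chemokines, Ccl5 (RANTES) had 21.7, 16.7 and 17.5 CPM in the IFN-α libraries and 1820.5, 1630.3 and 1528 CPM in the combined libraries (log2 fold change 6.48 ± 0.17, edgeR adjusted p = 3.34e-17), beside 259.8 ± 64.2 CPM with R848 alone. Ccl3 and Ccl4, neighbouring genes with close coding sequences, also rose. Ccl3 had 135, 131 and 161 CPM in the IFN-α libraries and 8024, 6754 and 7071 CPM in the combined libraries (log2 fold change 5.67 ± 0.11, edgeR adjusted p = 7.68e-27). Ccl4 had 144, 127 and 151 CPM in the IFN-α libraries and 3728, 3264 and 3718 CPM in the combined libraries (log2 fold change 4.66 ± 0.10, edgeR adjusted p = 1.66e-25). Reads shared between such close copies may not be counted reliably. Ccl7 rose 28.0-fold and Ccl2, the main monocyte attractant, 15.7-fold, to 2205 ± 70.8 CPM. Ccl12, a mouse monocyte attractant, rose 8.35-fold from 94.4 ± 7.09 to 788 ± 75.2 CPM and averaged 9.43 ± 1.41 CPM with R848 alone. Ccl9 rose 11.8-fold to 548 ± 24.9 CPM, close to its 525 ± 65.8 CPM with R848 alone. Ccl22 was not called, with 1.16, 1.09 and 0 CPM in the IFN-α libraries and 3.36, 2.16 and 1.61 CPM in the combined libraries (edgeR adjusted p = 0.0781).

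Promoters of 4 of the genes that rose together are shown because each holds a match to the NF-κB site in the bases just before its start. The sequences are the 180 bases before the RefSeq start on GRCm38.p6, written 5′ to 3′ on the gene's strand. Capitals mark matches to the NF-κB consensus, searched with its reverse complement so that both strands were read. Cxcl1 is at chr5:90891065-90891244, plus strand, Cxcl2 at chr5:90903719-90903898, plus strand, Il6 at chr5:30012934-30013113, plus strand, and Nfkbia, the inhibitor IκBα described below, at chr12:55492648-55492827, minus strand.
Cxcl1: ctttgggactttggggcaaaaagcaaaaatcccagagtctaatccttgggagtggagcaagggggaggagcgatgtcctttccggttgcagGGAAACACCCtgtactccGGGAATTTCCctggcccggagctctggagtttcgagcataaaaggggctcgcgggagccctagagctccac
Cxcl2: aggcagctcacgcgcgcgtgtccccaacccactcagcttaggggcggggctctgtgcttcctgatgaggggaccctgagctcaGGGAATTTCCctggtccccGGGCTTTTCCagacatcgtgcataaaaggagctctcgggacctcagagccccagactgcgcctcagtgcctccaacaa
Il6: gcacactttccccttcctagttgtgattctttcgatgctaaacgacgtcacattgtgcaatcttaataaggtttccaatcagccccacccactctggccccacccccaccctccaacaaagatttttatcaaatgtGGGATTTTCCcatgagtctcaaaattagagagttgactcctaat
Nfkbia: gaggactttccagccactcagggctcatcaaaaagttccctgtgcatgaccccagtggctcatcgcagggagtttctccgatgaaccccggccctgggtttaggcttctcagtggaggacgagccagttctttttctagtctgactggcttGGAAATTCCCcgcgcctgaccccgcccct
Counting back from the start, Cxcl1 had matches at bases -89 to -80 and -71 to -62 and Cxcl2 at -97 to -88 and -78 to -69. Il6 had 1 at -44 to -35 and Nfkbia 1 at -29 to -20. The same consensus occurred in the 300-base promoters of 180 of 8821 tested genes with a RefSeq promoter (2.04%). A comparison of that share between gene sets was void, since only 74.4% of the genes at least 4-fold higher had a promoter sequence. A match describes the letters and is no evidence of binding.

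Chemokine and formyl peptide receptors also moved. Of 8 tested, 6 rose and 1 fell. Fpr1, a receptor for bacterial formyl peptides, had 5.81, 2.53 and 4.77 CPM in the IFN-α libraries and 208, 201 and 194 CPM in the combined libraries (log2 fold change 5.51 ± 0.16, edgeR adjusted p = 4.63e-22), and Fpr2 rose 15.3-fold from 11.9 ± 2.14 to 182 ± 7.62 CPM. Ccrl2, which presents the attractant chemerin, rose 5.01-fold from 277 ± 21.8 to 1388 ± 116 CPM. Cxcr4, the receptor of CXCL12, was the member that fell: it had 209.9, 203 and 214 CPM in the IFN-α libraries and 10.5, 9.07 and 13.3 CPM in the combined libraries (log2 fold change -4.19 ± 0.14, edgeR adjusted p = 1.43e-20), and it averaged 42.8 ± 6.86 CPM with R848 alone. Cx3cr1, the fractalkine receptor of microglia, had 106, 122 and 95.1 CPM in the IFN-α libraries and 158, 128 and 142 CPM in the combined libraries (log2 fold change 0.41 ± 0.11, edgeR adjusted p = 0.00585). Its call was lost under library totals (0.10, adjusted p = 0.587) and without IFN-α library 3 (0.33, adjusted p = 0.0602, edgeR).

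Of 15 tested colony-stimulating and growth factors 7 rose and 5 fell. Csf3, encoding the granulocyte factor G-CSF, had 0.774, 0 and 0 CPM in the IFN-α libraries and 130.0, 121 and 131 CPM in the combined libraries. With 2 counts in the IFN-α group its scaled count ratio was 545 (exact 95% interval 150 to 4503, edgeR adjusted p = 8.77e-21). Csf2, encoding GM-CSF, rested on 1 and 184 counts, a ratio of 157 (27.8 to 6224), at 15.3, 14.7 and 21.9 CPM in the combined libraries and 24.9, 18.4 and 31.1 CPM with R848 alone. Csf1, the microglial survival factor, rose 1.96-fold from 210.3 ± 22.3 to 413 ± 41.0 CPM. Pdgfb, a mitogen for pericytes and glia, rose 12.3-fold from 42.4 ± 4.08 to 521 ± 33.3 CPM. Igf1, a trophic factor of resting microglia, fell by 1.32-fold.

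Edn1, the precursor of the vasoconstrictor endothelin-1, had 1.16, 1.45 and 1.91 CPM in the IFN-α libraries and 239, 214 and 204 CPM in the combined libraries (log2 fold change 7.12 ± 0.20, edgeR adjusted p = 1.72e-22) and 11.3 ± 2.82 CPM with R848 alone. It belonged to 13 tested coagulation and vasoactive mediators, of which 9 rose and 1 fell. Procr, the protein C receptor, rose 13.6-fold from 5.39 ± 1.44 to 73.3 ± 7.89 CPM. F3, tissue factor, rose 2.20-fold.

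The Toll-like receptor list, which also holds the co-receptor Cd14 and the chaperone Cnpy3, had 5 of 13 tested genes higher and 5 lower (3 and 6 under library totals). Tlr7 itself, the receptor of R848, had 595, 602 and 654 CPM in the IFN-α libraries and 644, 596 and 632 CPM in the combined libraries (log2 fold change 0.016 ± 0.088, edgeR adjusted p = 0.916); the groups overlapped, and its sign turned under upper-quartile factors (-0.068), library totals (-0.297) and when combined library 1 or IFN-α library 1 or 2 was left out. It averaged 114 ± 14.9 CPM with R848 alone. Cd14, the co-receptor for bacterial ligands, had 372, 355 and 400.4 CPM in the IFN-α libraries and 2899, 2543 and 2829 CPM in the combined libraries (log2 fold change 2.88 ± 0.087, edgeR adjusted p = 5.79e-22). Tlr2, a receptor for bacterial lipopeptides, rose 3.61-fold to 1259.7 ± 74.4 CPM, and its partner Tlr1 rose 3.68-fold. Tlr4, the lipopolysaccharide receptor, fell by 2.22-fold from 125 ± 5.16 to 56.2 ± 2.41 CPM. The endosomal receptors Tlr8, Tlr9 and Tlr13 fell by 2.10-fold, 1.91-fold and 2.17-fold. Cnpy3, a chaperone that Toll-like receptors need to leave the endoplasmic reticulum, fell by 2.33-fold from 68.3 ± 1.56 to 29.0 ± 2.74 CPM.

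Of 24 tested signal transducers downstream of the receptors 10 rose and 1 fell (5 and 4 under library totals). Irak3, the inhibitory member of the IRAK family, had 6.97, 5.07 and 4.45 CPM in the IFN-α libraries and 83.3, 65.6 and 70.4 CPM in the combined libraries (log2 fold change 3.74 ± 0.17, edgeR adjusted p = 2.9e-17) and 212 ± 5.52 CPM with R848 alone. Ikbke, a kinase that acts on IRF factors, rose 6.09-fold from 45.9 ± 6.00 to 278 ± 19.9 CPM. Map3k8, the kinase TPL2 upstream of ERK, rose 2.69-fold, and the adaptor Myd88 2.33-fold from 149.6 ± 9.06 to 348 ± 11.4 CPM.

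The NF-κB list held 18 tested genes, of which 15 rose and none fell, with a median log2 difference of 2.25. Inhibitors of the pathway were among them. Tnfaip3, the ubiquitin-editing enzyme A20, had 75.5, 69.5 and 70.3 CPM in the IFN-α libraries and 1556, 1366 and 1530.4 CPM in the combined libraries (log2 fold change 4.37 ± 0.10, edgeR adjusted p = 7.16e-25). Nfkbiz, the nuclear protein IκBζ required for Il6 and Il12b transcription, had 46.5, 40.9 and 43.9 CPM in the IFN-α libraries and 1195, 1058 and 1095 CPM in the combined libraries (log2 fold change 4.67 ± 0.10, edgeR adjusted p = 1.66e-25). Nfkbia, encoding IκBα and carrying the promoter match shown above, had 53.8, 49.97 and 59.2 CPM in the IFN-α libraries and 588, 582 and 581 CPM in the combined libraries (log2 fold change 3.42 ± 0.10, edgeR adjusted p = 5.35e-22). Its 3 combined values lay within a few CPM of each other. Tnip3, an A20-binding protein, rose 31.8-fold from 1.54 ± 1.18 to 49.6 ± 5.61 CPM, and Nfkbie 16.8-fold. The subunit genes rose too, Nfkb2 by 12.7-fold, Rel by 5.21-fold, Nfkb1 by 5.04-fold, Relb by 4.14-fold and Rela by 3.22-fold.

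Of 16 tested genes in the list of mRNA decay regulators and phosphatases, which also holds the phosphodiesterase gene Pde4b, 10 rose and 1 fell. Zc3h12a, the nuclease regnase-1 that degrades Il6 and Il12b transcripts, had 22.8, 25.7 and 24.5 CPM in the IFN-α libraries and 278, 252 and 288 CPM in the combined libraries (log2 fold change 3.48 ± 0.14, edgeR adjusted p = 8.66e-19). Pde4b, a phosphodiesterase that lowers cyclic AMP, rose 20.2-fold from 32.2 ± 4.86 to 655 ± 64.8 CPM. The MAP kinase phosphatases Dusp2 and Dusp4 rose 18.7-fold and 9.36-fold, whereas Dusp1 had 56.5, 49.3 and 57.2 CPM in the IFN-α libraries and 61.3, 65.6 and 55.7 CPM in the combined libraries and was not called (edgeR adjusted p = 0.391). Zfp36, encoding the Tnf mRNA destabiliser tristetraprolin, rose 2.95-fold.

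Immediate early transcription factors rose less uniformly: 12 of 22 were higher and 2 lower. Ier3 rose 9.87-fold, Maff 5.10-fold, Junb 2.73-fold from 289.9 ± 30.4 to 792 ± 18.8 CPM, and Atf3, a repressor of Il6 and Il12b transcription, 1.74-fold. Jun and Nr4a1 were the members that fell, by 1.48-fold and 1.798-fold. Fos had 10.5, 6.88 and 7.31 CPM in the IFN-α libraries and 3.74, 7.77 and 4.62 CPM in the combined libraries and was not called (edgeR adjusted p = 0.113), although it was called lower without combined library 2 (-0.92, adjusted p = 0.0419) and under library totals.

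The interferon pathway itself shifted in several parts. Of 17 tested receptor and JAK-STAT genes 9 rose and 3 fell, against 3 and 4 under library totals. Ifnar1, a chain of the IFN-α receptor, had 133, 151 and 143 CPM in the IFN-α libraries and 419.8, 354 and 359 CPM in the combined libraries (log2 fold change 1.40 ± 0.093, edgeR adjusted p = 1.93e-13). Its partner Ifnar2 had 90.2, 92.3 and 101 CPM in the IFN-α libraries and 117, 111 and 100.3 CPM in the combined libraries and was not called (edgeR adjusted p = 0.15). Jak2, a kinase of the interferon-γ and gp130 receptors, had 347, 347 and 350.5 CPM in the IFN-α libraries and 982, 913 and 976 CPM in the combined libraries (log2 fold change 1.46 ± 0.087, edgeR adjusted p = 1.81e-14). Stat2 had group means of 293 ± 31.9 and 309.8 ± 1.49 CPM and was not called (edgeR adjusted p = 0.532). Usp18, the protease that desensitises the receptor, was level at 1013 ± 23.3 and 1046 ± 14.6 CPM (log2 fold change 0.046 ± 0.087). Socs1, another brake on these kinases, rose 2.82-fold, Stat5a 2.49-fold and Stat3 1.46-fold, and Stat6 fell by 1.62-fold.

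Interferon-stimulated genes, which both groups were given IFN-α to induce, differed by small folds. Of 50 tested, 29 were called higher and none lower, with a median log2 difference of 0.32 and 3 calls of at least 2-fold. Under upper-quartile factors the calls were 25 higher and 2 lower, and under library totals 13 higher and 9 lower. With combined library 1 or IFN-α library 3 left out, 1 was called lower, Oas3, as it was with the stricter count filter, the 6 libraries alone, unstranded counts or Rn45s removed. At an unadjusted p under 0.05 edgeR had 1 lower, and DESeq2 and limma-voom called none lower at an adjusted p of 0.05. With TMM the members ranged from -0.25 ± 0.10 for Oas3 to 1.60 ± 0.08 for Gbp5.

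Gbp5, a guanylate-binding protein of antimicrobial defence, had 928, 940.1 and 1012 CPM in the IFN-α libraries and 3077, 2879 and 2783 CPM in the combined libraries (log2 fold change 1.60 ± 0.08, edgeR adjusted p = 2.02e-16), and 364 ± 17.5 CPM with R848 alone. Ifih1, the cytosolic RNA sensor MDA5, had 330.3, 302 and 304 CPM in the IFN-α libraries and 649.5, 666 and 723 CPM in the combined libraries (log2 fold change 1.12 ± 0.086, edgeR adjusted p = 4.69e-12). Gbp3 rose 2.05-fold. Rsad2, the antiviral enzyme viperin, had 3522, 3258 and 3645 CPM in the IFN-α libraries and 6463, 6063 and 5820.3 CPM in the combined libraries (log2 fold change 0.82 ± 0.08, edgeR adjusted p = 1.15e-09), against 32.5 ± 3.75 CPM with R848 alone. Isg15, the ubiquitin-like modifier, had 634, 599 and 639 CPM in the IFN-α libraries and 1049.9, 1100.4 and 1131 CPM in the combined libraries (log2 fold change 0.81 ± 0.079, edgeR adjusted p = 8.98e-10). These 5 genes were higher in all 3 combined libraries than in all 3 IFN-α libraries, and their direction held under library totals. Mx1 rose 1.54-fold, Ifit1 1.43-fold and Cmpk2, a mitochondrial nucleotide kinase, 1.53-fold from 5878 ± 358 to 8999 ± 719.8 CPM.

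Irf7, the factor that amplifies interferon production, had 913, 903 and 886 CPM in the IFN-α libraries and 1069, 988 and 1090.3 CPM in the combined libraries (log2 fold change 0.22 ± 0.078, edgeR adjusted p = 0.0301). Its sign turned under library totals (-0.09), and its call was lost under upper-quartile factors, with no filter on low counts and when any library but combined library 2 was left out (adjusted p = 0.0662 to 0.128, edgeR). Members that were not called included Ifit3 at 1528 ± 54.0 and 1414 ± 38.5 CPM, Oasl2 at 937 ± 34.0 and 999.9 ± 49.4 CPM and Zbp1 at 405 ± 27.5 and 360.0 ± 21.2 CPM. Ifit3 and its near-identical copy Ifit3b may share reads. Of 10 interferon genes none passed the filter on low counts: Ifnb1 had 13 counts over the combined group, 2 over the IFN-α group and 1 over the R848-alone group.

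**Figure D3:**
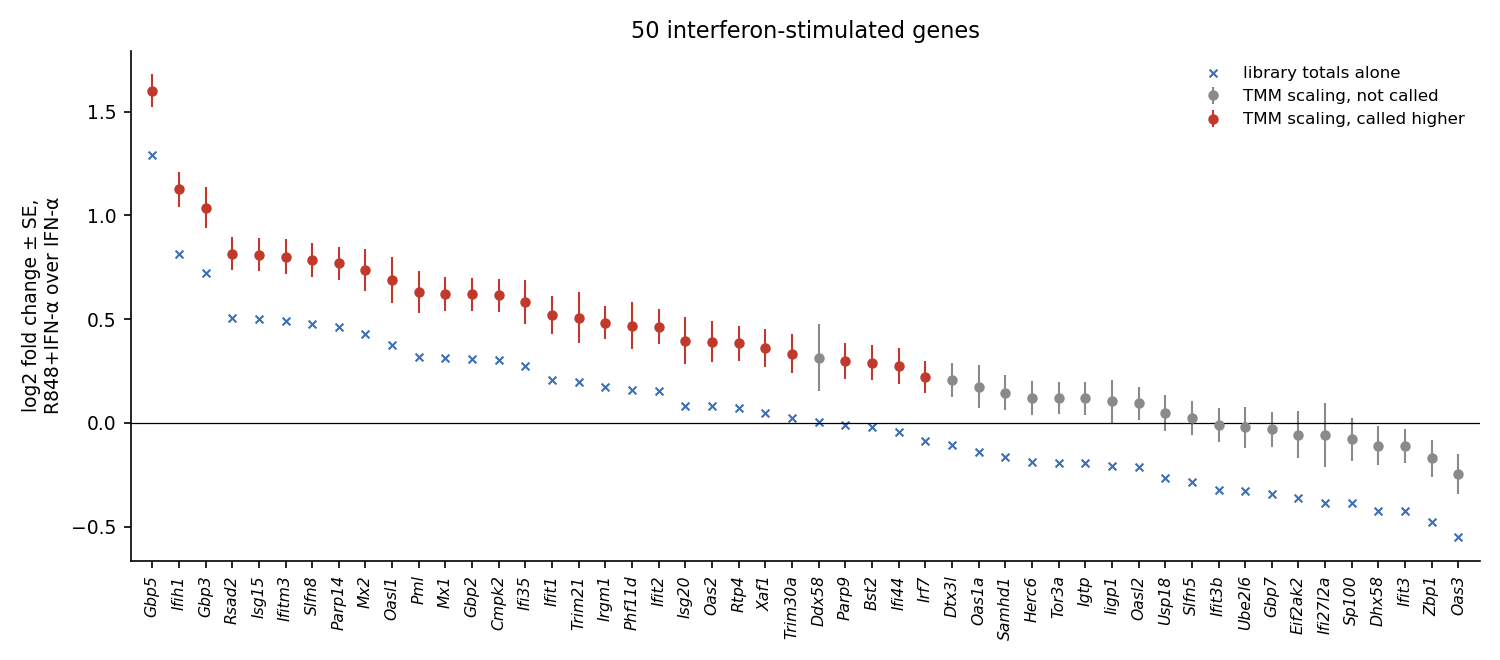
Log2 fold change of R848+IFN-α over IFN-α for the 50 interferon-stimulated genes, ordered by value, with bars for the SE; red points are called higher, grey points are not called, and crosses give the value with library totals in place of TMM. Gbp5, Ifih1 and Gbp3 exceed a log2 value of 1 with TMM, 21 members are not called, and the crosses lie below 0 for the members on the right.

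Promoters of 3 interferon-stimulated genes that rose are shown to set their response elements beside the sequences above. They cover the same 180 bases before the RefSeq start on GRCm38.p6, with capitals for matches to the interferon-stimulated response element core (a pair of GAAA runs with any 2 bases between them), the NF-κB site and the AP-1 site TGANTCA, each searched on both strands. Gbp5 is at chr3:142496754-142496933, plus strand, Isg15 at chr4:156200819-156200998, minus strand and Rsad2 at chr12:26456453-26456632, minus strand.
Gbp5: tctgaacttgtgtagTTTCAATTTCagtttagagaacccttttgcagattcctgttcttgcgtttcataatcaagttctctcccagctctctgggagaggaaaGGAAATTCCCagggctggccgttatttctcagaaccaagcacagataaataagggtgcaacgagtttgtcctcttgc
Isg15: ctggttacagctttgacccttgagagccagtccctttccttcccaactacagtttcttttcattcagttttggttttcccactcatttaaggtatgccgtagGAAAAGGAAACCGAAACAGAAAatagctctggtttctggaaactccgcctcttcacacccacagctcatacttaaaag
Rsad2: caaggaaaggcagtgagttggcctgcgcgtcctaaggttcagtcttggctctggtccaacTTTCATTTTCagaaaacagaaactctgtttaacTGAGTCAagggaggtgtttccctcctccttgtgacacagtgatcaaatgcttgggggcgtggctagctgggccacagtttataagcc
Gbp5, the member of largest rise, had an interferon response element at -165 to -156 and an NF-κB match at -77 to -68. Isg15 had 3 overlapping interferon response elements between -78 and -57 and no NF-κB match in this window. Rsad2 had an interferon response element at -120 to -111 and an AP-1 match at -87 to -81. Of the 8821 tested genes with a RefSeq promoter, 4.05% held the interferon response element and 6.19% the AP-1 site. A match in any 300-base promoter window of a gene counted, and the genes had 11342 windows in all.

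Antigen presentation by MHC class I, which shows peptides to CD8 T cells, had 10 of 19 tested genes higher and 1 lower (7 and 3 under library totals; none lower with any 1 library left out). H2-Q4 rose 2.23-fold from 177 ± 2.60 to 395 ± 13.97 CPM, Psme2, a proteasome activator subunit, 1.93-fold, and Tapbp, which loads peptide, 1.72-fold. H2-K1 and H2-D1, the classical class I genes, rose 1.67-fold and 1.70-fold. H2 genes are close copies, so reads shared between them may not be counted reliably. B2m, the invariant chain, rose 1.34-fold to 3006 ± 246 CPM.

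Costimulation genes rose further. Of 11 tested class II and costimulation genes 7 rose and 1 fell, and H2-Aa, H2-Ab1 and H2-Eb1, the class II chains, were too sparse to test at 17, 10 and 3 counts over the combined group. Cd40, a receptor through which T cells activate microglia, had 88.7, 86.2 and 91.6 CPM in the IFN-α libraries and 1592, 1398 and 1514 CPM in the combined libraries (log2 fold change 4.08 ± 0.10, edgeR adjusted p = 8.96e-24), beside 322 ± 40.9 CPM with R848 alone. Cd83 rose 5.43-fold from 132 ± 11.9 to 716 ± 51.9 CPM, Icosl 3.74-fold and Cd80 3.33-fold. Cd86, the second ligand of CD28, rose only 1.30-fold from 191 ± 3.69 to 248.99 ± 7.02 CPM. Cd274, the inhibitory ligand PD-L1, rose 1.64-fold from 1652 ± 118 to 2704 ± 180.4 CPM.

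Lectin, SLAM, TREM and CD300 receptors moved both ways, with 12 of 26 tested higher and 8 lower. Clec4e, the glycolipid receptor Mincle, had 10.5, 13.04 and 12.7 CPM in the IFN-α libraries and 631, 546 and 609 CPM in the combined libraries (log2 fold change 5.61 ± 0.13, edgeR adjusted p = 5.53e-25) and 1198 ± 110.0 CPM with R848 alone. Slamf7, a self-ligand receptor of activated macrophages, had 46.1, 57.9 and 58.2 CPM in the IFN-α libraries and 885, 727 and 747 CPM in the combined libraries (log2 fold change 3.86 ± 0.11, edgeR adjusted p = 2.19e-22), while R848 alone gave 19.4 ± 1.92 CPM. Trem1, which amplifies inflammatory signalling, rose 10.3-fold from a low level, from 1.18 ± 0.420 to 12.4 ± 1.69 CPM. Cd69, an early activation antigen, rose 8.81-fold from 125 ± 6.04 to 1103 ± 109.6 CPM. Cd84, another SLAM receptor, fell by 3.96-fold from 394 ± 15.3 to 99.5 ± 1.46 CPM, and Slamf6 fell by 8.66-fold from 6.36 ± 1.99 to 0.527 ± 0.618 CPM.

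Nos2, the inducible nitric oxide synthase, had 0, 0.362 and 0.636 CPM in the IFN-α libraries and 441, 450.0 and 517 CPM in the combined libraries, from 3 and 4795 counts. The ratio of its scaled counts was 1361 (exact 95% interval 466 to 6604, edgeR adjusted p = 1.2e-23), and with R848 alone it averaged 17.2 ± 5.50 CPM. Slc7a2, which imports the arginine used by this enzyme, rose 5.22-fold from 431 ± 10.95 to 2249.8 ± 74.6 CPM, and Gch1, which makes its cofactor tetrahydrobiopterin, rose 3.33-fold. Arg1, which competes for arginine, fell by 2.89-fold from 28.0 ± 4.30 to 10.5 ± 5.27 CPM. Over the list of 11 tested genes 5 rose and 2 fell (5 and 4 under upper-quartile factors, 5 and 5 under library totals; 1 fell with DESeq2 or without combined library 2 or 3 or IFN-α library 1 or 2).

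Ptgs2, the inducible cyclooxygenase of prostaglandin synthesis, had 212, 251 and 325 CPM in the IFN-α libraries and 4238, 3607 and 3711 CPM in the combined libraries (log2 fold change 3.87 ± 0.13, edgeR adjusted p = 4.26e-15). Ptges, which converts its product to prostaglandin E, had 8.13, 9.78 and 11.8 CPM in the IFN-α libraries and 411, 377 and 406 CPM in the combined libraries (log2 fold change 5.31 ± 0.13, edgeR adjusted p = 2.63e-24). Pla2g4a, the phospholipase that supplies arachidonic acid, rose 1.96-fold. Ptgs1, the constitutive cyclooxygenase, fell by 1.78-fold, and Hpgd, which inactivates prostaglandins, by 2.502-fold. In total 3 of 13 tested prostaglandin and leukotriene genes rose and 5 fell, where 18.5% of all genes tested were higher and 14.7% lower.

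Irg1, also called Acod1, makes itaconate from a citric acid cycle intermediate in activated macrophages. It had 620.3, 599.7 and 646 CPM in the IFN-α libraries and 8968, 7720.2 and 7943 CPM in the combined libraries (log2 fold change 3.72 ± 0.088, edgeR adjusted p = 1.71e-24) and 3120.3 ± 205 CPM with R848 alone. It was the only riser among 15 tested itaconate and citric acid cycle genes. Of the others 2 were called lower, where 14.7% of all genes tested were lower. The lower calls numbered 8 under upper-quartile factors or library totals, and 1 when combined library 2 or IFN-α library 2 or 3 was left out.

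NRF2 target and oxidative response genes were mostly higher, 17 of 24 tested higher and 2 lower. The lower calls numbered 0 or 1 when combined library 2 or 3 or any IFN-α library was left out. Sod2, the mitochondrial superoxide dismutase, had 209, 192 and 179.999 CPM in the IFN-α libraries and 1671, 1502 and 1477 CPM in the combined libraries (log2 fold change 3.00 ± 0.089, edgeR adjusted p = 4.43e-22). Slc7a11, the cystine importer, had 58.1, 64.1 and 84.0 CPM in the IFN-α libraries and 737, 679 and 719 CPM in the combined libraries (log2 fold change 3.36 ± 0.11, edgeR adjusted p = 1.28e-20) and 1778 ± 202 CPM with R848 alone. Txnrd1, thioredoxin reductase, rose 5.38-fold, Sqstm1, the autophagy receptor p62, 4.397-fold, and Hmox1, haem oxygenase, 2.00-fold. Cybb, the oxidase subunit that makes superoxide, rose 2.20-fold to 1921 ± 67.6 CPM.

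Matrix and adhesion genes were mostly higher, 16 of 24 tested against 4 lower. Mmp13, a collagenase, had 249.3, 281 and 247 CPM in the IFN-α libraries and 7114, 6267 and 6712 CPM in the combined libraries (log2 fold change 4.69 ± 0.094, edgeR adjusted p = 3.47e-26), while R848 alone gave 391 ± 24.3 CPM, so the combined libraries stood far above both single treatments. Vcam1 rose 13.8-fold from 3.75 ± 0.626 to 53.0 ± 6.57 CPM and Icam1, a ligand of leukocyte integrins, 7.05-fold from 141 ± 16.1 to 995 ± 91.6 CPM. Plaur, the urokinase receptor, rose 6.39-fold. Of the integrins, Itga5, a fibronectin receptor chain, rose 4.65-fold and Itga4, which binds VCAM1, fell by 3.08-fold from 365 ± 8.63 to 118 ± 2.76 CPM.

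Iron-handling genes gave 8 of 15 tested higher and 3 lower, against 7 and 6 under upper-quartile factors. Lcn2, which withholds iron from bacteria, had 8.52, 3.98 and 6.996 CPM in the IFN-α libraries and 168, 185 and 132 CPM in the combined libraries (log2 fold change 4.62 ± 0.18, edgeR adjusted p = 3.94e-19). Steap4, a ferrireductase, rose 18.7-fold, Slc39a14, an iron and zinc importer, 7.48-fold, and Cp, the ferroxidase ceruloplasmin, 3.83-fold. The ferritin chains parted: Fth1 rose 2.40-fold from 2090.2 ± 178 to 5006 ± 22.1 CPM, and Ftl1 fell by 1.32-fold from 4066 ± 206 to 3074 ± 148 CPM. Slc40a1, the iron exporter ferroportin, fell by 1.66-fold.

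Complement genes moved both ways, 8 of 16 tested higher and 4 lower. C3, the central component, had 253, 240.5 and 189 CPM in the IFN-α libraries and 1520.2, 1539.6 and 1441 CPM in the combined libraries (log2 fold change 2.72 ± 0.10, edgeR adjusted p = 4.03e-20) and 379.7 ± 16.5 CPM with R848 alone. C1s1, a protease of the classical pathway, rose 6.87-fold, C5ar1, the C5a receptor, 4.46-fold, and Cfb, of the alternative pathway, 3.74-fold. The C1q chains C1qa and C1qc, which microglia supply to the brain, fell by 1.31-fold and 1.37-fold. The astrocyte markers, whose cells also make C3, C1s1 and Lcn2, summed to 2451 to 3536 CPM in the same combined libraries and 1198 to 1520 CPM in the IFN-α libraries. Of the 11 tested astrocyte markers 6 were called higher and 5 were not called. The part of astrocytes in the rises of C3, C1s1 and Lcn2 was not tested.

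Glycolysis and hypoxia genes were 9 of 22 higher and 2 lower (6 and 3 under library totals; 1 lower without combined library 2). Slc2a1, the glucose transporter GLUT1, had 37.2, 39.1 and 37.8 CPM in the IFN-α libraries and 152, 151 and 151 CPM in the combined libraries (log2 fold change 1.99 ± 0.12, edgeR adjusted p = 1.72e-14). Pfkp, a phosphofructokinase, rose 2.60-fold, Slc16a3, the lactate exporter, 2.05-fold, and Hk3, a hexokinase of myeloid cells, 1.97-fold. Pfkfb3, which makes the activator of phosphofructokinase, fell by 1.48-fold.

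Sterol genes moved in opposite ways along the oxysterol route. Ch25h, which makes 25-hydroxycholesterol, had 135, 125 and 164 CPM in the IFN-α libraries and 2297, 2115 and 2433 CPM in the combined libraries (log2 fold change 4.01 ± 0.10, edgeR adjusted p = 8.42e-24). Cyp7b1, the next enzyme of that route, rose from a low level, from 0.574 ± 0.546 to 4.88 ± 0.140 CPM. Gpr183, the receptor (EBI2) for the product of both enzymes, fell to 1 count over the 3 combined libraries from 62 over the IFN-α libraries, which had 9.29, 6.52 and 6.36 CPM. The ratio of scaled counts was 72.8 (exact 95% interval 12.6 to 2921, edgeR adjusted p = 6.31e-08). Cyp27a1, which makes 27-hydroxycholesterol, fell by 7.97-fold from 25.0 ± 3.23 to 3.04 ± 0.691 CPM. Of 12 tested efflux and oxysterol genes 2 rose and 7 fell. The exporters Abcg1 and Abca1 fell by 2.78-fold and 1.51-fold, Soat1, which esterifies cholesterol, by 1.83-fold, and Nceh1, which removes the ester, by 4.26-fold from 685 ± 42.6 to 161 ± 16.0 CPM.

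Inflammasome genes, a list that also counts Il1b, divided evenly, 7 of 16 tested higher and 7 lower. Nlrp3, the sensor that activates caspase-1, had 9.68, 7.97 and 8.90 CPM in the IFN-α libraries and 631, 607 and 696 CPM in the combined libraries (log2 fold change 6.18 ± 0.14, edgeR adjusted p = 7.16e-25). Casp4 and Casp1, the inflammatory caspases, rose 2.13-fold and 1.70-fold. Nlrp1a, another sensor, had 19.7, 18.5 and 16.5 CPM in the IFN-α libraries and 2.61, 1.30 and 1.01 CPM in the combined libraries (log2 fold change -3.55 ± 0.33, edgeR adjusted p = 3.29e-10), and its close copy Nlrp1b fell by 3.63-fold. Pycard, the adaptor ASC that joins sensor and caspase, fell by 2.14-fold from 43.3 ± 6.54 to 20.3 ± 0.939 CPM, and P2rx7, the ATP-gated channel that triggers Nlrp3, by 2.23-fold from 61.1 ± 4.00 to 27.2 ± 2.00 CPM.

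Of 29 tested genes in the apoptosis and necroptosis list, 19 were higher and 3 lower (5 lower under library totals, 1 lower with the stricter count filter). Traf1, an adaptor of TNF receptors, had 4.65, 3.62 and 1.27 CPM in the IFN-α libraries and 268, 209 and 240.3 CPM in the combined libraries (log2 fold change 6.27 ± 0.19, edgeR adjusted p = 9.59e-22). Bcl2a1a, Bcl2a1d and Bcl2a1b, near-identical copies of an anti-apoptotic BCL2 relative, rose 32.7-fold, 17.6-fold and 8.27-fold. Reads shared among these copies may not be counted reliably. Cflar, the caspase-8 inhibitor, rose 4.47-fold from 185 ± 13.9 to 829 ± 15.4 CPM, and Birc3, an inhibitor of apoptosis, 5.18-fold. Tnfrsf1b, a TNF receptor, rose 7.61-fold to 1761 ± 116 CPM. The pro-apoptotic genes Bbc3 and Pmaip1, known as PUMA and NOXA, fell by 3.26-fold and 2.52-fold. Fas, the death receptor, rose 8.72-fold at a low level, from 1.32 ± 0.981 to 11.9 ± 3.66 CPM. Mab21l3, among the 15 largest rises and of no list, rested on 1 and 119 counts (ratio 101, exact 95% interval 17.8 to 4037).

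**Figure D4:**
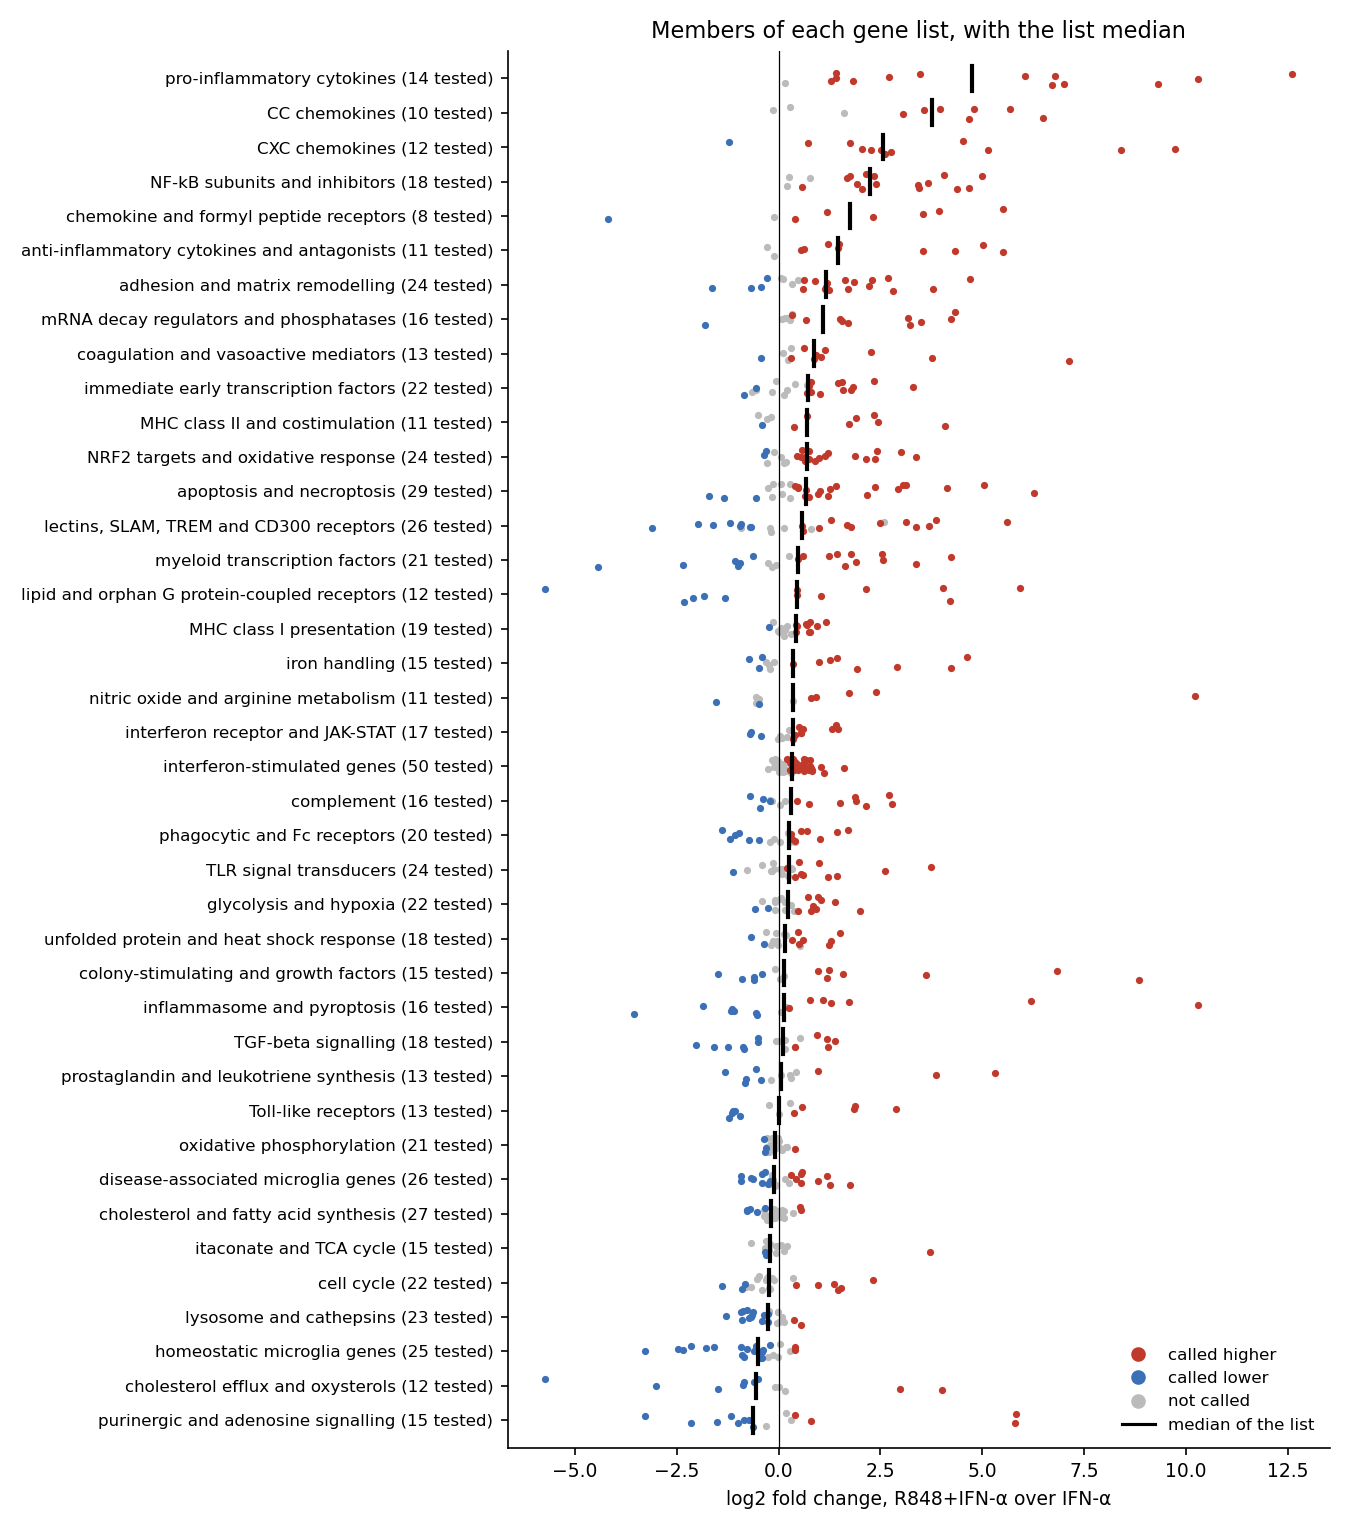
Log2 fold change of R848+IFN-α over IFN-α for each tested member of the functional gene lists, ordered by list median (black line); red members are called higher, blue lower and grey not called. The pro-inflammatory cytokine, CXC chemokine, CC chemokine and NF-κB lists lie to the right with medians of 2.25 to 4.75, the interferon-stimulated genes cluster near 0.32, and the purinergic, oxysterol, homeostatic and lysosomal lists have medians below 0.

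Myeloid transcription factors moved both ways: 11 of 21 rose and 6 fell. Cebpa, which sets up the macrophage lineage, had 517, 502 and 514 CPM in the IFN-α libraries and 23.9, 26.8 and 21.5 CPM in the combined libraries (log2 fold change -4.43 ± 0.13, edgeR adjusted p = 2.04e-22), and 80.1 ± 15.3 CPM with R848 alone. Its relatives Cebpd and Cebpb rose 5.84-fold and 3.72-fold. Maf, a factor of resting macrophages, rose 3.44-fold from 168 ± 10.4 to 581 ± 117 CPM. Ets2 rose 10.3-fold from 55.0 ± 4.46 to 565 ± 119.5 CPM. Spi1, the master factor PU.1, rose 2.34-fold, and Irf8, its partner in microglia, 2.71-fold from 152 ± 18.5 to 413 ± 36.8 CPM. Mef2c and Bhlhe41, factors of microglial identity, fell by 1.99-fold and 2.08-fold.

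Homeostatic microglia genes were mostly lower: 18 of 25 tested were lower and 2 higher, with a median log2 difference of -0.50 (19 and 0 under library totals, 16 and 1 without IFN-α library 3). P2ry12, the ADP receptor that guides microglial processes, had 43.8, 38.4 and 40.4 CPM in the IFN-α libraries and 12.7, 5.61 and 9.05 CPM in the combined libraries (log2 fold change -2.14 ± 0.20, edgeR adjusted p = 4.66e-10). P2ry13, a related receptor, had 137, 144 and 151 CPM in the IFN-α libraries and 14.6, 12.1 and 16.7 CPM in the combined libraries (log2 fold change -3.28 ± 0.14, edgeR adjusted p = 6.82e-18). With R848 alone the receptors were lower still, at 2.41 ± 0.561 CPM for P2ry12 and 1.20 ± 0.503 CPM for P2ry13. Tmem119, a microglia-specific membrane protein, was low in these cultures, with 1.55, 3.26 and 3.82 CPM in the IFN-α libraries and 0.374, 0 and 0.804 CPM in the combined libraries (log2 fold change -2.47 ± 0.64, edgeR adjusted p = 0.00325). Selplg, the selectin ligand, fell by 3.43-fold and Olfml3 by 1.87-fold. Trem2, a lipid-sensing receptor, fell by 1.90-fold.

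The 15 falls of largest fold included several receptors, regulators of small GTPases and glycan-modifying enzymes. Abi3, a regulator of actin in microglia, had 32.5, 29.7 and 36.9 CPM in the IFN-α libraries and 0.374, 0.432 and 0.402 CPM in the combined libraries (log2 fold change -6.23 ± 0.38, edgeR adjusted p = 3.51e-14). Gpr157, an orphan receptor, had 161, 184 and 169 CPM in the IFN-α libraries and 8.59, 5.61 and 7.84 CPM in the combined libraries (log2 fold change -4.51 ± 0.16, edgeR adjusted p = 2.05e-20). Tmem86a, a lysoplasmalogenase, had 126, 135 and 129.8 CPM in the IFN-α libraries and 5.603, 5.61 and 7.04 CPM in the combined libraries (log2 fold change -4.37 ± 0.16, edgeR adjusted p = 1.38e-19). In these genes every combined library lay far below every IFN-α library. Cnr2, the cannabinoid receptor of immune cells, fell from 12.2 ± 3.05 to 0.690 ± 1.03 CPM, and Gcnt1, a glycosyltransferase, from 112 ± 1.58 to 7.61 ± 1.43 CPM. Arhgap19, a GTPase-activating protein, fell from 66.1 ± 1.77 to 3.96 ± 1.83 CPM, and Rasgrp3, a Ras activator, from 14.5 ± 4.26 to 1.23 ± 0.925 CPM. Fgd2 fell from 46 counts to 1 (ratio 54.0, exact 95% interval 9.22 to 2179). Chst10 and B3gnt8, which modify glycans, fell 11.3-fold and 9.66-fold.

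**Figure D5:**
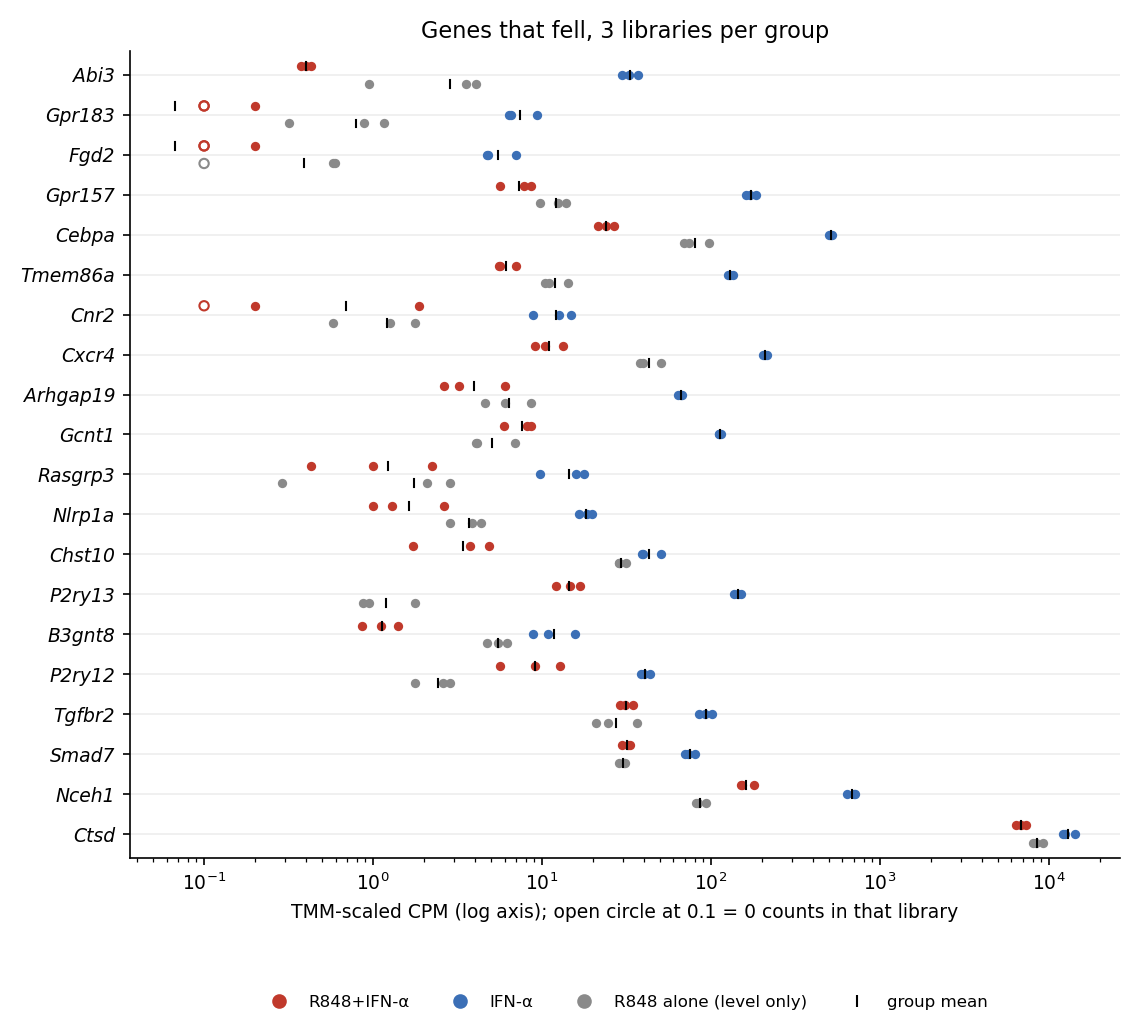
Per-library level (TMM-scaled CPM, log axis) of 20 genes that fell, in the combined, IFN-α and R848-alone groups, 3 libraries each; dots are libraries, ticks group means, and an open circle at 0.1 stands for 0 counts. All combined libraries lie left of all IFN-α libraries in each gene, while the R848-alone level lies below the combined one for P2ry13, P2ry12 and Nceh1 and nearer the IFN-α one for Chst10 (29.5 ± 1.78 CPM).

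Purinergic and adenosine genes fell more often than they rose, 8 against 4 of 15 tested (9 and 2 under library totals), but the largest changes were rises. Adora2a, an adenosine receptor that raises cyclic AMP, had 0.387, 0 and 0.636 CPM in the IFN-α libraries and 21.7, 21.6 and 23.3 CPM in the combined libraries, and Adora2b had 0.387, 0 and 0.636 CPM in the IFN-α libraries and 23.9, 25.0 and 18.1 CPM in the combined libraries. Each rested on 3 counts in the IFN-α group, with ratios of 63.6 (exact 95% interval 21.5 to 311) and 60.2 (20.3 to 294). Entpd1, which breaks down extracellular ATP, fell by 1.79-fold from 103 ± 6.20 to 57.9 ± 8.52 CPM. P2ry6, the receptor for UDP that promotes phagocytosis, rose 1.32-fold, and P2ry14, which senses UDP-glucose, fell by 1.98-fold.

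Receptors for lipids and metabolites also moved both ways, 7 of 12 higher and 5 lower. Gpr84, a receptor for medium-chain fatty acids, had 4.26, 5.79 and 6.36 CPM in the IFN-α libraries and 336, 339 and 339 CPM in the combined libraries (log2 fold change 5.92 ± 0.15, edgeR adjusted p = 1.29e-23), close to its 332 ± 44.3 CPM with R848 alone. Hcar2, the niacin and ketone receptor, had 23.2, 29.0 and 27.7 CPM in the IFN-α libraries and 499, 458 and 525 CPM in the combined libraries (log2 fold change 4.21 ± 0.11, edgeR adjusted p = 1.78e-23). Lpar6, Gpr65, a proton sensor, and S1pr2, a sphingosine phosphate receptor, fell by 4.98-fold, 4.32-fold and 2.48-fold.

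Transforming growth factor β, whose signal maintains microglial identity, had a ligand higher and receptors lower. Tgfb1 rose 2.31-fold from 20.9 ± 2.55 to 48.2 ± 2.61 CPM. Tgfbr2 fell by 2.98-fold from 92.8 ± 8.06 to 31.5 ± 2.83 CPM and Tgfbr1 by 1.801-fold. Smad6 and Smad7, inhibitors and targets of the pathway, fell by 4.07-fold and 2.37-fold. Over the list 5 of 18 rose and 7 fell, and 3 rose without IFN-α library 3.

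Lysosomal genes were lower by small amounts, 13 of 23 tested against 2 higher (18 and 0 under library totals), with a median log2 difference of -0.26. Ctsd, the protease cathepsin D and the transcript with the largest loss in CPM, had 12454, 12186 and 14222 CPM in the IFN-α libraries and 7299, 6357 and 6818 CPM in the combined libraries (log2 fold change -0.92 ± 0.081, edgeR adjusted p = 9.65e-11). Lipa, the acid lipase, fell by 1.82-fold, Ctse by 1.86-fold, and Tfeb, the factor that drives lysosomal genes, by 2.43-fold from 15.4 ± 1.11 to 6.67 ± 1.83 CPM. Psap, which activates lysosomal hydrolases, fell by 1.36-fold. Ctsl and Ctsc were the members that rose, by 1.48-fold and 1.29-fold. Lyz2, the lysozyme of macrophages, had 13234, 13055 and 13133 CPM in the IFN-α libraries and 11763, 10605 and 11864 CPM in the combined libraries (log2 fold change -0.20 ± 0.072, edgeR adjusted p = 0.0295), and its call was lost with no filter on low counts (-0.21), without combined library 2 (-0.15) and without IFN-α library 1, 2 or 3 (-0.21 to -0.20).

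Phagocytic and Fc receptors moved both ways, 8 of 20 higher and 6 lower (3 and 8 under library totals; 5 higher without combined or IFN-α library 3). Marco and Msr1, scavenger receptors, rose 3.28-fold and 2.68-fold. Marco had 163, 159.7 and 81.4 CPM in the IFN-α libraries, where library 3 lay well below the others, and 436, 441 and 439.6 CPM in the combined libraries. Mrc1, the mannose receptor, fell by 2.28-fold, Cd300lf by 2.63-fold, and Fcgr3, an activating Fc receptor, by 1.95-fold, whereas Fcgr2b, the inhibitory one, rose 2.02-fold. Genes known from disease-associated microglia were evenly divided, 9 of 26 higher and 9 lower (4 and 14 under library totals). Of these Cd52 rose 3.38-fold and Itgax 2.28-fold, while Apoe had 15152 ± 817 and 14190.0 ± 1038 CPM and was not called (edgeR adjusted p = 0.388).

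Some cell cycle regulators rose. Cdkn1a, the cell cycle inhibitor p21, rose 2.88-fold from 157 ± 5.31 to 452 ± 21.996 CPM and Plk2 2.77-fold, as did Cdk6, 5.03-fold from 10.23 ± 0.968 to 51.8 ± 11.4 CPM. Over the list 6 of 22 rose and 3 fell (5 and 10 under library totals, and 5 fell without IFN-α library 1). Over all genes tested 18.5% were higher and 14.7% lower, so the lower calls in this list lay near the general share. The cholesterol and fatty acid synthesis list held 2 of 27 higher and 5 lower, where 14.7% of all genes tested were lower. It gave 0 and 15 under library totals, 9 lower under upper-quartile factors, and 3 lower with DESeq2 or without combined library 2 or IFN-α library 2 or 3. Dhcr7 and Pmvk, enzymes of the pathway, fell by 1.70-fold and 1.72-fold.

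Astrocyte markers were also higher in the combined libraries, 6 of 11 tested against none lower, and 3 against 1 under library totals. Aqp4, the water channel of astrocyte endfeet, had 265, 297 and 278 CPM in the IFN-α libraries and 1049, 1205 and 891 CPM in the combined libraries (log2 fold change 1.90 ± 0.18, edgeR adjusted p = 6.54e-06). Gfap, the astrocyte filament, had 922, 675 and 652 CPM in the IFN-α libraries and 1213, 1838 and 1203 CPM in the combined libraries (log2 fold change 0.92 ± 0.19, edgeR adjusted p = 0.00476), and its call was lost in the fit of the 6 libraries alone (0.91, adjusted p = 0.0539, edgeR). Slc1a3, a glutamate transporter, rose 2.17-fold, whereas Aldh1l1, Gja1 and Sox9 were not called, with log2 fold changes of -0.45 ± 0.27, -0.038 ± 0.14 and -0.085 ± 0.21. The summed level of the list was above its IFN-α range in every combined library, and much of that difference lay in Aqp4 and Gfap. With R848 alone it was 1511 to 1765 CPM. Among other leukocyte markers, Cd3e, Cd8a, Cd79a, S100a9 and Mpo had 0 counts in both groups and none of the 2 tested was called.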

How the data were processed

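RNA was measured in 9 libraries, of which 6 entered the comparison; ribosomal RNA was depleted and a strand-specific kit used, per the labels' protocols. The submitters' processing notes name CASAVA 1.8.2, Trimmomatic 0.33, STAR 2.5.1, DESeq2 and the build mm10 (gene annotation: not given in the sources used here). Files as deposited hold raw read counts per gene for unstranded, forward-strand and reverse-strand counting. Forward-strand counts were 1.09 to 1.50% of forward-strand and reverse-strand counts together in the 6 libraries, so the reverse-strand counts were used. The 4 summary rows per file were dropped; unmapped reads were 21.4 to 25.6% and reads on no gene 39.5 to 42.2% of all in the same libraries.

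Genes were kept by edgeR's expression filter (minimum count 10, minimum total 15), scaled by TMM and fitted by group over all 9 libraries, which share 1 estimate of the spread, with edgeR 4.0.16 in R 4.3.3 (robust quasi-likelihood test). The biological coefficient of variation was 0.0955. On simulated data with 11002 genes for this comparison, 77% of 2-fold and 98% of 4-fold changes were called, and 10 of 185 calls were false. The simulation changed 100 genes by each fold, with rises and falls equal in number. The data had 3652 genes called and unequal tails, so the simulated rate of false calls may not hold for them. Standard errors were derived from the fitted log2 fold change and its F statistic. Where a group had 0 counts of a gene, a floor of 3 for the whole group took their place, and genes with 1 to 3 counts were given as ratios with exact 95% binomial intervals; reads without molecular identifiers are not independent molecules, so these cover counting error only. Putting Il12b and other genes with 0 counts in a group at their bound moved no list's median. At its bound Il12b stayed above the median of its list, so that median could not move. Genes given as ratios kept their fitted values. Alternatives used DESeq2 1.42.0, limma-voom (limma 3.58.1), other scalings, filters and library sets. Promoters came from RefSeq on GRCm38.p6.

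The members, the 48 lists of genes and the naming rule were chosen with earlier results of these data known. Among called genes averaging 5 CPM or more on the higher side, without overlap or a provisional name, it took the 15 largest rises, 15 largest falls, 10 largest gains and 10 largest losses in CPM. It added, with no such limits, up to 4 called members per list by fold and a set of cytokine, interferon and identity genes. Other list members named in the text were chosen after their values were seen. Some genes the rule took are not reported here.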

Additional observations from a re-analysis of the deposited data

How the results depend on the processing

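The scaling had the largest effect. With library totals in place of TMM, 1044 genes were called higher and 3768 lower, and 1082 were lower by at least 2-fold, against 2035, 1617 and 482. Upper-quartile factors gave 1697 and 2091. DESeq2 called 1732 higher and 1201 lower. Leaving out 1 library at a time gave 1734 to 1819 higher and 1275 to 1373 lower calls. The other alternatives listed in the methods stayed within 1.5 times the counts with TMM. Same-numbered libraries did not deviate together (combined against IFN-α r = -0.101, -0.029 and -0.026 across genes), so the numbers were not taken as pairs; with the replicate number as a block 2077 genes were higher and 1624 lower, and Ccl22 was called (log2 1.69, edgeR adjusted p = 0.0415).

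Of 300 named genes, 256 kept their direction and their side of the threshold in every setting in which they were tested, and 11 turned sign at least once, most of them not called. Under library totals Irf7 was -0.0895, Rn45s -0.11, Tlr7 -0.297, Dusp1 -0.156, Ifnar2 -0.11, Oasl2 -0.214, Osm -0.15, Stat2 -0.222 and Usp18 -0.266 on the log2 scale. Under upper-quartile factors Tlr7 was -0.068, Stat2 -0.0011 and Usp18 -0.038. Tlr7 was -0.0046 without combined library 1, -0.0084 without IFN-α library 1 and -0.0020 without IFN-α library 2. Gja1 was 0.051 and Sox9 0.115 without combined library 3, and Sox9 was 0.068 without IFN-α library 2. Over the libraries left out, Tlr7 ranged from -0.0084 to 0.0594 and Sox9 from -0.278 to 0.115. The cause was not tested. At 2505941 to 6005578 counts per library, genes under the filter, among them all interferon genes, could not be compared.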
